A study of Mus musculus with 15 samples.

Results

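Transcripts of 10 genes of the NF-κB pathway were followed in group 2 innate lymphoid cells (ILC2s) and their bone marrow progenitors (ILC2p) with and without TGF-β receptor II. The genes were the inhibitors *Tnfaip3* (A20), *Nfkbia* (IκBα) and *Nfkbie* (IκBε), and *Nfkbiz*, which encodes the nuclear IκB protein IκBζ. The others were the subunits *Nfkb1*, *Nfkb2*, *Rel*, *Rela* and *Relb*, and the ubiquitin ligase gene *Birc3* (cIAP2). All 10 were taken by gene symbol, and each matched 1 of the 24690 entries (24089 gene symbols) counted in every library. The list was chosen by pathway with the counts and RPKM of all 15 libraries already known, so levels and fold changes of these 10 genes are given as a description, without p-values.

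All cells came from C57BL/6 mice that carried floxed *Tgfbr2* alleles (Tgfbr2f/f) and ER-Cre, a Cre recombinase that tamoxifen activates in any cell and that is not restricted to innate lymphoid cells. Donors of the *Tgfbr2*-/- groups received 1 mg tamoxifen per day for 5 days, and WT donors, which had the same alleles, received sunflower oil. ILC2s (CD45+ Lin- CD127+ Sca-1+ CD25+ KLRG1+) were sorted from the digested gut lamina propria (LP) of intact mice 1 day after the last dose, giving 4 WT and 3 *Tgfbr2*-/- libraries. ILC2p (CD45.2+ Lin- CD127+ α4β7+ CD25+) were sorted from flushed bone marrow (BM) of irradiated CD45.1 hosts that had received equal parts of donor and CD45.1 marrow 6 weeks earlier, giving 4 WT and 4 *Tgfbr2*-/- libraries. Each cell type was collected in 2 experiments, and the labels do not say which libraries are separate animals, so the spread between libraries may be partly technical. Cell type cannot be told apart from tissue, dissociation, host and time after deletion, and in bulk RNA fewer cells of a type cannot be told apart from less RNA per cell. Total counts on genes were 12167066 to 32114265 per ILC2 library and 10957021 to 35961215 per ILC2p library.

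NF-κB dimers of REL-family subunits are held in the cytoplasm by IκB proteins until the IκB kinase complex marks these for degradation. *Tnfaip3* and *Nfkbia* are themselves classical NF-κB target genes and act as negative feedback, A20 by editing ubiquitin chains upstream of the kinase and IκBα by binding the dimers again. In ILC2s the pathway is used downstream of the IL-33 receptor ST2 (encoded by *Il1rl1*).

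Because several of these genes are known targets of their own pathway, the sequence before their start sites was searched on both strands for the 10-letter κB consensus motif. RefSeq promoter sequences (GRCm38.p6 table) were listed for 7 of the 10 genes, and 5 of the 7 held at least 1 match in the 250 bases upstream, against 8.23% of 27025 gene symbols. Counted by window, 7 of 10 listed windows of these genes held a match, against 7.25% of all 32851 windows. The 130 bases before the start are shown for 4 genes whose levels separated groups below, 5′ to 3′ on the coding strand, with matches in capitals and overlapping matches joined.
Tnfaip3: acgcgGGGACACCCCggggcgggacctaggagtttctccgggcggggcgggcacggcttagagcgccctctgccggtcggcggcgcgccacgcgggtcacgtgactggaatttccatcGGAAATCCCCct
Nfkbia: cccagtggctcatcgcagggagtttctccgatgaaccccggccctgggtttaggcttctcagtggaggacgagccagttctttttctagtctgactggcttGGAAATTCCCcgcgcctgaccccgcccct
Nfkb2: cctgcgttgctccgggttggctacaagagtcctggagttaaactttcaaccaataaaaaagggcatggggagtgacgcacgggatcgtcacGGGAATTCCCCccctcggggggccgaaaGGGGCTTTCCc
Rel: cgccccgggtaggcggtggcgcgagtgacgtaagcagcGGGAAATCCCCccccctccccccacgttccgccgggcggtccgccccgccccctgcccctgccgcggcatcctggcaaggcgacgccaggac
On the NCBIM37 (mm9) build, where each stretch had 1 exact match, they lie at chr10:18735217-18735346 (minus strand), chr12:56593635-56593764 (minus), chr19:46379097-46379226 (plus) and chr11:23670970-23671099 (minus). *Tnfaip3* had matches that began 125 and 12 bases before 1 of its 2 listed starts, the one shown, and none before the other. *Nfkbia* had 1 match, which began 29 bases before its start. *Nfkbie* had a match 106 bases before its start, and none was found for *Rela* or *Birc3*. The RefSeq start of *Tnfaip3* shown here lies inside the longer Ensembl gene model, so its stretch overlaps the annotated gene. A match is a description of the letters, and no binding was measured.

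The deleted gene itself did not separate the genotypes. *Tgfbr2* was at 172, 262, 150 and 207 CPM (TMM-normalized counts relative to library size) in WT ILC2s and at 206, 184 and 96.6 CPM in *Tgfbr2*-/- ILC2s, with experiment 1 before experiment 2 here and below. It was at 0.71, 233, 107 and 188 CPM in WT ILC2p and at 87.4, 130, 30.9 and 219 CPM in *Tgfbr2*-/- ILC2p. Counts cover whole transcripts and not the floxed part alone, so the levels in the *Tgfbr2*-/- libraries do not check the deletion. The value of 0.71 CPM, in replicate 1 of experiment 1, is low for a WT label, but it was also below every *Tgfbr2*-/- library. That replicate is here called the library labelled WT ILC2p experiment 1 replicate 1. Its neutrophil and monocyte markers, described below, summed to 172 CPM, against 73208 CPM or more in *Tgfbr2*-/- ILC2p. *Rel* (0 CPM) and *Nfkbid* (0.45 CPM) were also near 0 in it. Whether its label is right was not tested. Groups are given as labelled, and the WT ILC2p values include this library. Without it the log2 fold change of *Tnfaip3* was -1.82 between genotypes in ILC2p and 0.77 between WT cell types, and the difference of its genotype effect between the cell types was 1.56. For *Rel* the genotype difference in ILC2p was 2.57 with it and 1.03 without it, and its direction turned between the experiments, at 5.39 in experiment 1 alone and -0.30 in experiment 2 alone. Calls over all genes went from 302 to 201 between WT cell types, from 321 to 319 between genotypes in ILC2p and from 127 to 309 for the difference of genotype effects.

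Per transcript length, *Nfkbia*, *Tnfaip3* and *Nfkbiz* were the most abundant of the 10 genes. In WT ILC2s the median RPKM (length-normalized counts, as deposited) was 4593 for *Nfkbia*, 1188 for *Tnfaip3* and 400.2 for *Nfkbiz*, whose ranges did not overlap one another. The other 7 had overlapping ranges from neighbour to neighbour, with medians from 107 (*Rela*) down to 30.3 (*Relb*). The order of the first 3 was the same in *Tgfbr2*-/- ILC2s and in WT ILC2p. In *Tgfbr2*-/- ILC2p *Nfkbiz*, at a median of 236, stood before *Tnfaip3*, at 189, although their ranges overlapped. *Tnfaip3* exceeded 99.8% of all entries in the median WT ILC2 library and 98.0% in the median *Tgfbr2*-/- ILC2p library.

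Across the comparisons, few of the 10 genes passed the call thresholds of an adjusted p under 0.1 (edgeR quasi-likelihood test, Benjamini-Hochberg over all genes) and a fold change over 1.5. Between WT ILC2s and WT ILC2p 1 gene, *Tnfaip3*, was called higher in ILC2s, where 1.65% of 12806 tested genes were. Between *Tgfbr2*-/- ILC2s and *Tgfbr2*-/- ILC2p *Tnfaip3* and *Nfkbia* were called higher, where 8.21% of genes were. Between genotypes in ILC2s 0 of the 10 genes were called, as were 0% of 11981 genes, with 557 genes at an unadjusted p under 0.05 and 0 calls by limma, while DESeq2 called 338 genes and none of the 10. Between genotypes in ILC2p *Tnfaip3* alone was called lower, where 0.866% of 9242 genes were. The difference of the genotype effect between the cell types was called for 1 of the 10 genes, *Tnfaip3*, where 0.469% of genes were called in that direction. These counts rest on the same values that led to the choice of the list and are not read further.

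**Figure D1:**
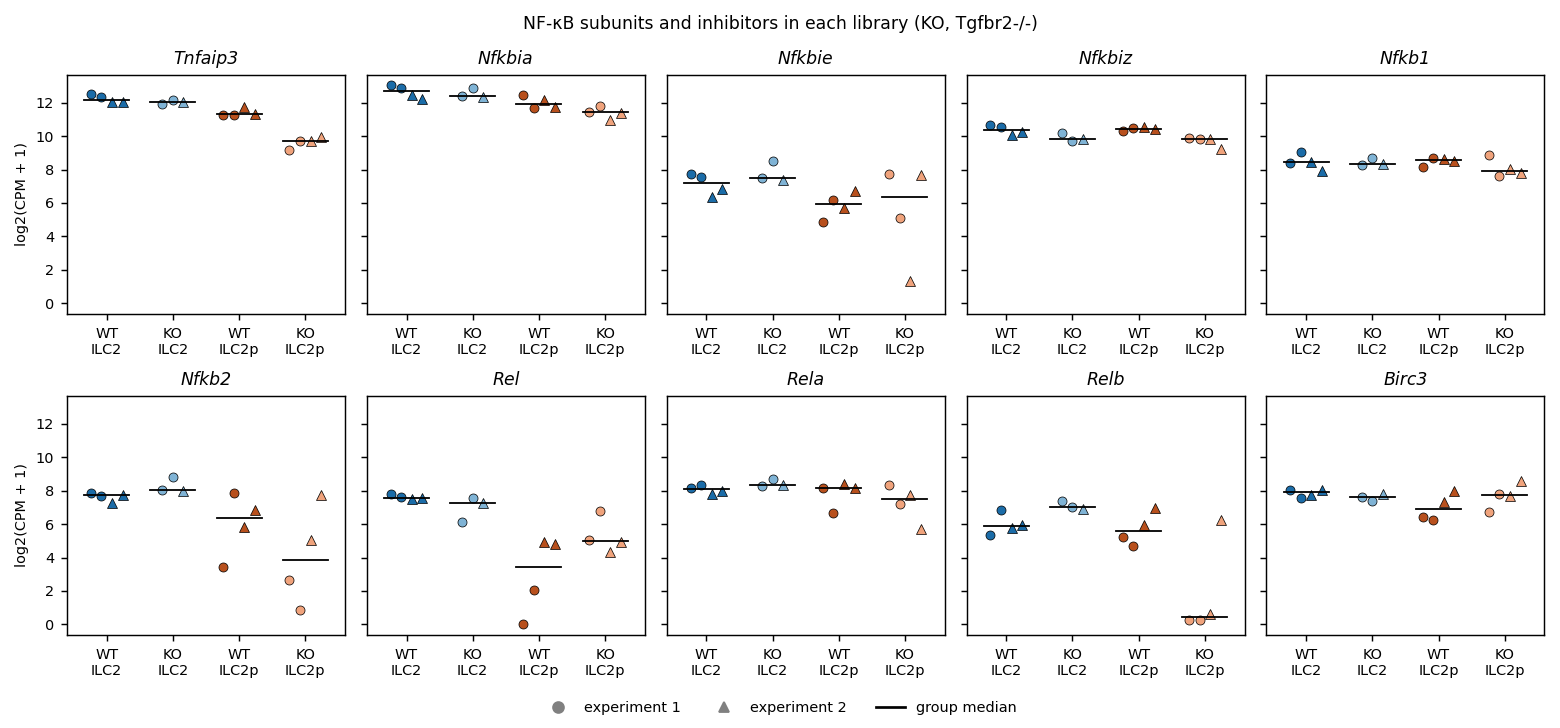
Level of each of the 10 genes, as log2(CPM + 1), in 4 WT and 3 *Tgfbr2*-/- (KO) ILC2 libraries and 4 WT and 4 KO ILC2p libraries. Circles are experiment 1, triangles are experiment 2 and bars are group medians; *Tnfaip3* steps down from ILC2s to WT ILC2p to KO ILC2p without overlap, and *Nfkb2*, *Rel* and *Relb* scatter widely in ILC2p.

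*Tnfaip3* (chr10:18720716-18735463, minus strand, in the NCBIM37 Ensembl annotation, as for the genes below) encodes A20, the ubiquitin-editing enzyme that limits NF-κB activation. Its level, as CPM on 1 scale over the 15 libraries, was 5792, 5084, 4263 and 4181 in WT ILC2s and 3946, 4563 and 4170 in *Tgfbr2*-/- ILC2s. It was 2442, 2489, 3434 and 2570 in WT ILC2p and 581, 825, 818 and 970 in *Tgfbr2*-/- ILC2p. The genotypes overlapped in ILC2s, whereas every *Tgfbr2*-/- ILC2p library lay below every WT ILC2p library, and every ILC2 library lay above every ILC2p library. The log2 fold change of *Tgfbr2*-/- over WT was -0.25 (SE 0.15) in ILC2s, turning to 0.01 in experiment 2 alone, and -1.81 (SE 0.19) in ILC2p. The difference between these was 1.56 (SE 0.20) on the log2 scale, and 0.55 relative to the median of the ILC2 markers for the same difference (1.01). Within experiments, the WT mean in ILC2p was 3.51 times the *Tgfbr2*-/- mean in experiment 1 and 3.36 times in experiment 2, although neither experiment alone passed the thresholds (log2 -1.82 and -1.83). In ILC2s over ILC2p, *Tnfaip3* was 1.77-fold higher in WT cells (log2 0.82, SE 0.17) and 5.29-fold higher in *Tgfbr2*-/- cells (log2 2.40, SE 0.19), comparisons that share libraries with the genotype comparisons. The WT difference missed the thresholds without replicate 2 of WT ILC2p experiment 1, at a log2 fold change of 0.74. Relative to the median change of the ILC2 markers described next, an alternative chosen after seeing the data, it turned to -0.42. The *Tgfbr2*-/- difference went from 2.40 to 0.55. These markers did not move together between WT cell types, where 7 of the 11 were above 0 and 4 below. *Klrg1*, which the ILC2 sort used and the ILC2p sort did not, was at 2.96 and *Il1rl1* at -2.72. Their median is therefore not a measure of ILC2 content, here or below.

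Cell type markers moved with this difference in ILC2p. The 8 neutrophil and monocyte markers (*S100a8*, *S100a9*, *Ngp*, *Camp*, *Mmp8*, *Elane*, *Lyz2* and *Itgam*) summed to 88104, 73208, 73709 and 79557 CPM in *Tgfbr2*-/- ILC2p and to 172, 485, 551 and 557 CPM in WT ILC2p. None of the 8 was at 0 in any ILC2p library, and 7 of the 8 were called higher in *Tgfbr2*-/- ILC2p, where 2.61% of all genes were. The most abundant, *S100a8*, reached 23800 to 29610 CPM there, although CD11b+ and Gr-1+ cells belonged to the lineage-positive cells that the sort removed. In ILC2s this list summed to at most 79.0 CPM, and *Elane*, *Camp* and *Itgam* were at 0 in all 7 libraries. Basophil and mast cell markers summed to 1211 to 1585 CPM in *Tgfbr2*-/- ILC2p, led by *Prss34*, and to 111 to 298 CPM in WT ILC2p, led by *Cpa3*, while *Ms4a2* was at 0 in 7 of the 8 ILC2p libraries.

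The ILC2 marker list summed to 8267 to 10060 CPM in WT ILC2s and 6992 to 9658 CPM in *Tgfbr2*-/- ILC2s, where T cell, B cell, NK and ILC1, and ILC3 markers each summed to at most 494 CPM. Between the WT cell types, B cell markers (61.0 to 84.9 against 0.71 to 42.0 CPM), NK and ILC1 markers (20.3 to 59.6 against 0.37 to 18.4 CPM) and progenitor markers led by *Kit* (235 to 503 against 14.0 to 135 CPM) were above in every ILC2 library. Basophil and mast cell markers (0 to 5.52 against 111 to 298 CPM) and neutrophil and monocyte markers (0 to 79.0 against 172 to 557 CPM) were below in every ILC2 library. The part of all these markers in the cell type differences was not tested. The 11 ILC2 markers, led by *Gata3* in all 15 libraries, summed to 8746, 6737, 7328 and 6266 CPM in WT ILC2p and to 2965, 2938, 2699 and 4155 CPM in *Tgfbr2*-/- ILC2p. Of 10 tested, *Il1rl1* (log2 fold change -1.96, SE 0.22, adjusted p = 0.00156, edgeR) and *Gata3* (-1.41, SE 0.31, adjusted p = 0.0603, edgeR) were called lower, 9 were below 0, and the median was -1.01 against -0.10 over all genes. Set against the summed ILC2 markers, a ratio chosen after these values were seen, *Tnfaip3* was 0.279, 0.369, 0.469 and 0.410 in WT ILC2p and 0.196, 0.281, 0.303 and 0.233 in *Tgfbr2*-/- ILC2p. Set against *Gata3* alone it was 0.516, 0.922, 1.14 and 1.10 in WT and 0.477, 0.948, 0.896 and 0.500 in *Tgfbr2*-/- ILC2p. The genotypes overlapped in both ratios, in the first only through the library labelled WT ILC2p experiment 1 replicate 1 (0.279). Relative to the marker median the log2 difference of *Tnfaip3* in ILC2p was -0.79. The part of these other markers in the *Tnfaip3* difference was not tested.

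**Figure D2:**
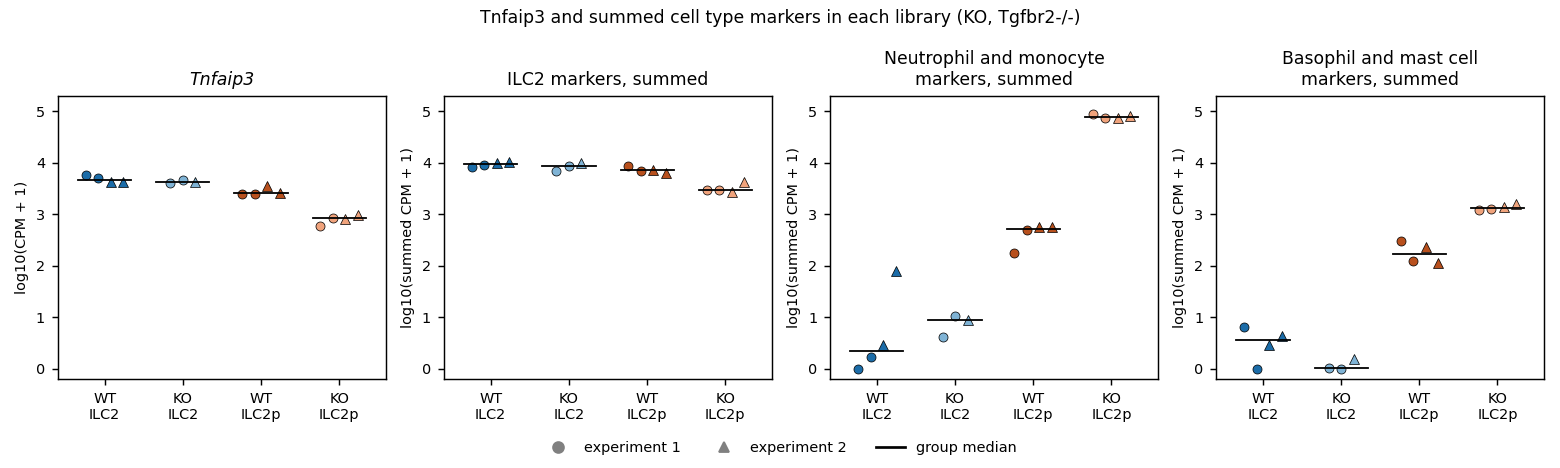
*Tnfaip3* and the summed markers of ILC2s, of neutrophils and monocytes and of basophils and mast cells in each of the 15 libraries, on a log10(CPM + 1) axis. Circles are experiment 1, triangles are experiment 2 and bars are group medians; *Tgfbr2*-/- (KO) ILC2p libraries hold 73208 to 88104 CPM of neutrophil and monocyte markers and at most 4155 CPM of ILC2 markers.

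*Nfkbia* (chr12:56590398-56593634, minus strand) encodes IκBα, the inhibitor that is resynthesized after each NF-κB response. It was at 8373, 7619, 5676 and 4713 CPM in WT ILC2s and at 5326, 7638 and 5264 CPM in *Tgfbr2*-/- ILC2s. It was at 5732, 3240, 4558 and 3394 CPM in WT ILC2p and at 2784, 3506, 1981 and 2708 CPM in *Tgfbr2*-/- ILC2p. Of the comparisons made, *Tgfbr2*-/- ILC2s and *Tgfbr2*-/- ILC2p had ranges apart from each other, and WT ILC2s and WT ILC2p had them apart without the library labelled WT ILC2p experiment 1 replicate 1 (5732 CPM). The log2 fold change of ILC2s over ILC2p was 0.64 (SE 0.23) in WT cells and 1.15 (SE 0.24), or 2.21-fold, in *Tgfbr2*-/- cells. With DESeq2 the second, at 0.94, missed the thresholds, and relative to the ILC2 marker median it turned to -0.70. In WT cells it missed them in edgeR but passed with library size only and in limma. Between genotypes it was -0.20 (SE 0.17) in ILC2s, turning to 0.05 in experiment 2 alone, and -0.67 (SE 0.22) in ILC2p, where it missed the thresholds in edgeR but passed them in 4 of 17 alternatives, limma among them. Set against the summed ILC2 markers, *Nfkbia* ran from 0.481 to 0.655 in WT ILC2p and from 0.652 to 1.19 in *Tgfbr2*-/- ILC2p, with medians in the opposite order to *Tnfaip3* and ranges that overlapped only through the library labelled WT ILC2p experiment 1 replicate 1 (0.655).

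*Nfkbiz* (chr16:55811488-55839012, minus strand) encodes IκBζ, a nuclear IκB protein that acts on a subset of NF-κB targets. It was at 1277, 1409, 1496 and 1360 CPM in WT ILC2p and at 938, 894, 913 and 598 CPM in *Tgfbr2*-/- ILC2p. Every *Tgfbr2*-/- library was below every WT library, at a log2 fold change of -0.76 (SE 0.22) that missed the thresholds in edgeR but passed them in limma and in edgeR with library size only. In the same libraries the ILC2 markers had a median log2 fold change of -1.01, and relative to it *Nfkbiz* turned to 0.25. In ILC2s it was at 1064 to 1601 CPM in WT and 840 to 1182 CPM in *Tgfbr2*-/- libraries, with overlap and a log2 fold change of -0.54 (SE 0.17). Between the cell types in WT its log2 fold change was -0.05 (SE 0.20), which turned to 0.05 and 0.0035 without replicate 1 or replicate 2 of WT ILC2s experiment 2. *Nfkbie* (chr17:45692665-45700118, plus strand) encodes IκBε, an inhibitor with slower feedback. It ranged from 1.53 to 209 CPM within *Tgfbr2*-/- ILC2p, a spread that covered the WT ILC2p libraries (28.0 to 103 CPM), and its log2 fold change there, 0.78 (SE 1.23), had no stable direction. It turned to -0.05 without replicate 1 of *Tgfbr2*-/- experiment 1, to -0.23 without replicate 2 of *Tgfbr2*-/- experiment 2, to -0.31 with a replicate block and to -0.54 in limma.

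Values under 1 CPM among the 10 genes were all in subunit genes and in ILC2p. Of 80 member values in ILC2p 5 were under 1 CPM, in *Nfkb2*, *Rel* and *Relb*, and 1 was at 0 counts, whereas 0 of 70 values in ILC2s were under 1 CPM. *Rel* (chr11:23641514-23670970, minus strand), which encodes c-Rel, was at 225, 194, 183 and 185 CPM in WT ILC2s and at 0, 3.20, 30.0 and 26.5 CPM in WT ILC2p. Every WT ILC2 library was above every WT ILC2p library. The log2 fold change was 3.72 (SE 1.16) and missed the thresholds in edgeR, but passed them in DESeq2, in limma and without the library labelled WT ILC2p experiment 1 replicate 1, which is the one at 0. In *Tgfbr2*-/- cells the ranges overlapped, with 69.8, 187 and 152 CPM in ILC2s and 31.9, 107, 19.0 and 29.6 CPM in ILC2p.

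*Relb* (chr7:20191566-20214787, minus strand) and *Nfkb2* (chr19:46379227-46386580, plus strand) encode the RelB and p52 subunits of the non-canonical pathway. *Relb* was at 39.3, 113, 53.4 and 61.0 CPM in WT ILC2s and at 164, 130 and 118 CPM in *Tgfbr2*-/- ILC2s. *Nfkb2* was at 230, 206, 153 and 216 CPM in WT ILC2s and at 257, 447 and 249 CPM in *Tgfbr2*-/- ILC2s. Both were higher in every *Tgfbr2*-/- ILC2 library than in every WT one, at log2 fold changes of 0.97 (SE 0.34) and 0.56 (SE 0.23) that were not past the thresholds in edgeR or in any of 16 alternatives. Of the 10 genes these 2 were the ones whose genotypes did not overlap in ILC2s, where 5.39% of all genes did not. The 4 NK and ILC1 markers separated the genotypes in the same libraries, summing to 39.1, 59.6, 27.6 and 20.3 CPM in WT ILC2s and to 105, 221 and 63.1 CPM in *Tgfbr2*-/- ILC2s, led by *Ncr1* or *Tbx21*, with *Eomes* at 0 in all 7. Their part in the *Relb* and *Nfkb2* values was not tested. In ILC2p they summed to at most 18.4 CPM in WT and to 21.8 CPM or more in *Tgfbr2*-/- libraries.

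In ILC2p the same genes went the other way in their medians without separating the genotypes. *Relb* was at 36.2, 24.3, 61.2 and 122 CPM in WT ILC2p and at 0.20, 0.21, 0.55 and 73.5 CPM in *Tgfbr2*-/- ILC2p. *Nfkb2* was at 9.64, 235, 56.1 and 116 CPM in WT libraries and at 5.26, 0.83, 32.1 and 215 CPM in *Tgfbr2*-/- libraries. In both genes replicate 2 of *Tgfbr2*-/- experiment 2 stood far above the other *Tgfbr2*-/- libraries and within the WT range. The log2 fold change of *Relb*, -4.17 (SE 2.26), missed the thresholds in edgeR but passed them in DESeq2 and without that library. That of *Nfkb2*, -2.43 (SE 2.09), missed them in edgeR and in all 17 alternatives and turned to 0.43 in experiment 2 alone. In the same libraries the ILC2 markers had a median of -1.01 and the neutrophil and monocyte markers one of 8.24, and their part in these values was not tested.

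*Nfkb1* (chr3:135247619-135354511, minus strand; p105 and p50) and *Rela* (chr19:5637483-5648130, plus strand; p65) form the most common dimer. *Nfkb1* lay between 194 and 536 CPM and *Rela* between 50.6 and 412 CPM over all 15 libraries. Genotypes overlapped in both cell types and cell types overlapped in both genotypes for each gene. In ILC2s the log2 fold change of *Tgfbr2*-/- over WT was -0.14 (SE 0.24) for *Nfkb1*, turning to 0.15 in experiment 2 alone and to 0.09 without replicate 2 of WT ILC2s experiment 1, and 0.30 (SE 0.17) for *Rela*. *Birc3* (chr9:7848699-7873186, minus strand), a ubiquitin ligase gene that NF-κB is known to induce, lay between 75.7 and 374 CPM. Its log2 fold change in ILC2p was 0.72 (SE 0.46), with overlapping genotypes.

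As a list, the 10 genes had a median log2 fold change of ILC2s over ILC2p of 0.67 in WT and 1.12 in *Tgfbr2*-/- cells, against -0.02 and -0.04 over all tested genes. Between genotypes their median was -0.17 in ILC2s and -0.58 in ILC2p, with all genes at -0.01 and -0.10. In the same order the ILC2 markers had medians of 1.24, 1.85, -0.10 and -1.01, and the neutrophil and monocyte markers had a median of 8.24 between genotypes in ILC2p. Every WT ILC2 library was above every WT ILC2p library for *Tnfaip3* and *Rel*, as for 7.05% of all genes. Every *Tgfbr2*-/- ILC2 library was above every *Tgfbr2*-/- ILC2p library for *Tnfaip3*, *Nfkbia*, *Nfkb2* and *Relb*, as for 18.1% of all genes. Every *Tgfbr2*-/- ILC2p library was below every WT one for *Tnfaip3* and *Nfkbiz*, as for 3.83% of all genes. Under the alternatives of processing the number of the 10 genes called ran from 0 to 3 in the WT cell type comparison, from 1 to 4 in the *Tgfbr2*-/- one and from 0 to 3 between genotypes in ILC2p. For the difference of the genotype effect it ran from 1 to 2, with *Relb* added by DESeq2, by limma and without replicate 2 of *Tgfbr2*-/- ILC2p experiment 2.

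**Figure D3:**
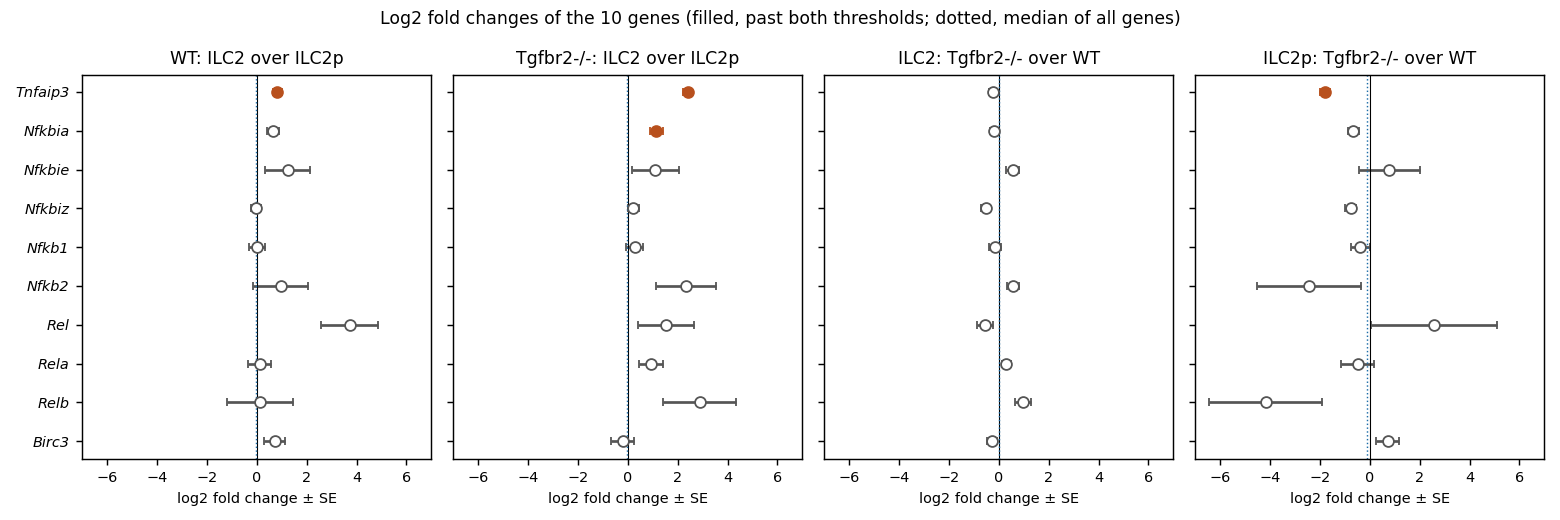
Log2 fold change with its standard error for each of the 10 genes in the cell type comparisons (left pair) and the genotype comparisons (right pair). Filled points passed both thresholds and the dotted line is the median of all genes; *Tnfaip3* is filled in every panel except the genotype comparison in ILC2s, and the widest errors belong to *Nfkb2*, *Rel* and *Relb* in ILC2p.

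The experiments were compared within each cell type. Experiment 2 against experiment 1 gave 0 calls among the 10 in ILC2s, where 0.977% of all genes were called, while limma called 0 of the 10 and DESeq2 called *Nfkbie* lower. In ILC2p edgeR gave 0 calls among the 10 and 0% among all 9242 genes, with 288 at an unadjusted p under 0.05, while limma called 0 genes and DESeq2 called 397 genes, *Relb* among them. The median log2 difference of the 10 was -0.37 in ILC2s and 0.20 in ILC2p. In ILC2s of experiment 2 epithelial markers summed to 223, 400.4 and 868 CPM, against 6.65 to 39.4 CPM in experiment 1.

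The rest of the pathway was examined in lists of genes outside the 10. The other IκB family genes (3), the kinases (13), the adaptors (15) and the ubiquitin-editing genes (13 of 15 tested) held 0 calls in edgeR in every comparison. At an unadjusted p under 0.05 these 44 genes gave 0 between the WT cell types, 5 between the *Tgfbr2*-/- cell types, 3 between genotypes in ILC2s and, of 40 tested, 1 between genotypes in ILC2p. Over all genes 1613 and 2858 of 12806, 557 of 11981 and 897 of 9242 had such a p. DESeq2 called 0, 4, 0 and 5 of the list and limma called 0, 8, 0 and 0, against 950, 2529, 338 and 1229 genes by DESeq2 and 390, 1981, 0 and 477 by limma over the whole table. For the difference of genotype effects and for the experiments in ILC2s and in ILC2p, 2, 9 and 4 had an unadjusted p under 0.05, DESeq2 called 3, 6 and 6, and limma called 0, against 1555 of 12806, 1591 of 11981 and 288 of 9242 genes with such a p and 1498, 1347 and 397 genes called by DESeq2. For the difference of genotype effects limma called 382 genes over the whole table. *Nfkbid* (IκBNS) was at 354 to 585 CPM in WT ILC2s and 0.45 to 218 CPM in WT ILC2p, and *Nfkbib* (IκBβ) at 117 to 317 and 84.1 to 212 CPM. The kinase gene *Ikbkb* (IKKβ) had medians of 147, 147, 135 and 130.3 CPM in WT ILC2s, *Tgfbr2*-/- ILC2s, WT ILC2p and *Tgfbr2*-/- ILC2p. In the same order *Map3k8* (TPL2) had medians of 79.2, 70.2, 88.7 and 32.1 CPM. Of the adaptors, *Traf1* had medians of 102, 197, 99.2 and 108 CPM and *Irak2*, which acts below IL-1 family receptors, 180.3, 152, 95.2 and 35.5 CPM. Of the ubiquitin-editing genes, *Tax1bp1*, an A20 partner, had medians of 407, 309, 294 and 179 CPM and *Rbck1* (HOIL-1) 298, 375, 175 and 146 CPM.

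Of 15 NF-κB target genes outside the list, 1 rose and 1 fell in WT ILC2s relative to WT ILC2p in edgeR, where 1.65% of all genes rose and 0.711% fell. DESeq2 called 2 higher and 1 lower, adding *Tnf*, out of 950 genes called either way. With limma 3 were higher and 1 lower, adding *Tnf* and *Il6*, out of 390 genes. In the *Tgfbr2*-/- comparison edgeR called 3 higher and 0 lower, where 8.21% of all genes rose and 3.44% fell, DESeq2 4 and 2, and limma 5 and 1, out of 2529 and 1981 genes called either way by these tools. *Gadd45b*, a stress-response gene, was at 1226, 1684, 800 and 1091 CPM in WT ILC2s and at 90.9, 48.4, 60.7 and 73.7 CPM in WT ILC2p. It was 17.5-fold higher (log2 4.13, SE 0.49, adjusted p = 0.000189, edgeR), and 10.9-fold higher in *Tgfbr2*-/- cells (log2 3.45, SE 0.49, adjusted p = 0.000505, edgeR), and was called under every alternative. *Ltb*, which encodes lymphotoxin β, fell by 1.27 on the log2 scale (SE 0.24, adjusted p = 0.0140, edgeR), from 1742 to 3550 CPM in WT ILC2p to 745 to 1318 CPM in WT ILC2s. *Tnfrsf9* (adjusted p = 0.0255, edgeR) and *Il6* (adjusted p = 0.0525, edgeR) were called higher in *Tgfbr2*-/- ILC2s than in *Tgfbr2*-/- ILC2p. *Tnfrsf9* was at 43.2, 109 and 114 CPM against at most 0.94 CPM, and *Il6* was at 12.04, 15.2 and 8.15 CPM against at most 0.04 CPM, its call being lost without either *Tgfbr2*-/- ILC2 library of experiment 1 and without replicate 2 of *Tgfbr2*-/- ILC2p experiment 2. Between these libraries neutrophil and monocyte markers differed too (73208 to 88104 CPM in *Tgfbr2*-/- ILC2p and 3.19 to 9.43 CPM in *Tgfbr2*-/- ILC2s), as did ILC2 markers (2699 to 4155 and 6992 to 9658 CPM), and their part in the differences between *Tgfbr2*-/- cell types, here and for the immediate early genes, was not tested.

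Between genotypes 0 of 15 target genes were called in ILC2s (3 at an unadjusted p under 0.05, 1 by DESeq2, 0 by limma) and 0 of 12 in ILC2p (3 at an unadjusted p under 0.05, 3 by DESeq2, 2 by limma). Over all genes the counts were 557 of 11981 at such a p, 338 by DESeq2 and 0 by limma in ILC2s, and 897 of 9242, 1229 and 477 in ILC2p. For the difference of the genotype effect between the cell types edgeR called 1 target, *Ltb* (log2 1.33, SE 0.32, adjusted p = 0.0952, edgeR), a call that 12 of 21 alternatives lost. DESeq2 called *Icam1*, *Ier3*, *Tnf* and *Tnfrsf9* and not *Ltb*, and limma called *Ier3* and *Ltb*. Over all genes edgeR called 127 of 12806 either way for this difference, DESeq2 1498 and limma 382.

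Immediate early and heat shock genes, which respond to stimulation and to tissue handling, were examined because ILC2s and ILC2p were isolated differently. Of 15, 3 rose and 4 fell in WT ILC2s relative to WT ILC2p in edgeR, where 1.65% of all genes rose and 0.711% fell. In the *Tgfbr2*-/- comparison 6 rose and 2 fell in edgeR, where 8.21% of all genes rose and 3.44% fell. DESeq2 gave 3 and 4, then 4 and 2, out of 950 and 2529 genes called either way. From limma came 2 and 4, then 7 and 1, out of 390 and 1981 genes. *Nr4a1* was at 11874 to 14651 CPM in WT ILC2s and 59.9 to 344 CPM in WT ILC2p (log2 5.96, SE 0.72, adjusted p = 0.000211, edgeR). *Atf3* was higher by 4.23 (SE 0.94, adjusted p = 0.0397, edgeR), not called without replicate 1 of WT ILC2p experiment 2. *Jund* went the other way, lower in WT ILC2s by a log2 fold change of -2.74 (SE 0.36, adjusted p = 0.000546, edgeR), at 284 to 606 CPM against 1366 to 4209 CPM. In *Tgfbr2*-/- cells *Nr4a1* (log2 6.52, SE 0.75, adjusted p = 7.64e-05), *Junb* (1.31, SE 0.25, adjusted p = 0.00645) and *Fosb* (1.25, SE 0.34, adjusted p = 0.0403) were higher in ILC2s in the edgeR test, *Fosb* losing its call without either ILC2 library of experiment 1. *Egr2* was called in both comparisons (adjusted p = 0.0653 and 0.0335, edgeR), the first lost in 8 of 15 alternatives and the second without replicate 2 of *Tgfbr2*-/- ILC2s experiment 1, and was at most 0.09 CPM in the ILC2p libraries. *Fosb* was also lower in experiment 2 than in experiment 1 among ILC2s (log2 -0.97, SE 0.14, adjusted p = 0.0727, edgeR), a call lost in 8 of 12 alternatives.

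In ILC2p the same list was lower in *Tgfbr2*-/- cells for 6 of 14 genes tested and higher for 0 in edgeR, against 0.866% and 2.61% of all genes, while DESeq2 called 5 lower and limma 9, with 0 higher in each. Over the whole table DESeq2 called 1229 genes either way and limma 477. *Jund* was at 4209, 2629, 2718 and 1366 CPM in WT ILC2p and in the *Tgfbr2*-/- libraries at 969, 970.2, 491 and 489.8 CPM (log2 -1.97, SE 0.26, adjusted p = 0.00400, edgeR). *Egr1* (-1.96, SE 0.34, adjusted p = 0.0203), *Junb* (-1.15, SE 0.22, adjusted p = 0.0269) and *Dusp1* (-1.25, SE 0.25, adjusted p = 0.0413) also fell in the edgeR test, *Dusp1* losing its call in 7 of 17 alternatives. For these 4 genes the calls were lost in each experiment alone, and that of *Junb* also without replicate 1 of *Tgfbr2*-/- ILC2p experiment 1. In ILC2s 0 of the 15 were called between genotypes (4 at an unadjusted p under 0.05, 0 by DESeq2, 0 by limma), and all 15 had a log2 fold change below 0. Of all 11981 genes there 0 were called by edgeR, 557 had such a p and 49.5% had a log2 fold change above 0. DESeq2 called 338 of all genes and limma 0. The difference between cell types was called for *Jund* (1.85, SE 0.39, adjusted p = 0.0552, edgeR), lost in 7 of 21 alternatives. That was the 1 call of the list in edgeR and in DESeq2, with 6 genes at an unadjusted p under 0.05 in edgeR, whereas limma called 7 (*Dusp1*, *Egr1*, *Fos*, *Ier2*, *Jun*, *Junb* and *Jund*). Over all genes this difference was called either way for 127 of 12806 by edgeR, 1498 by DESeq2 and 382 by limma. In edgeR 1555 of all genes had such an unadjusted p. The ILC2 and other cell type markers described above moved in the same ILC2p libraries, and their part in these values was not tested.

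**Figure D4:**
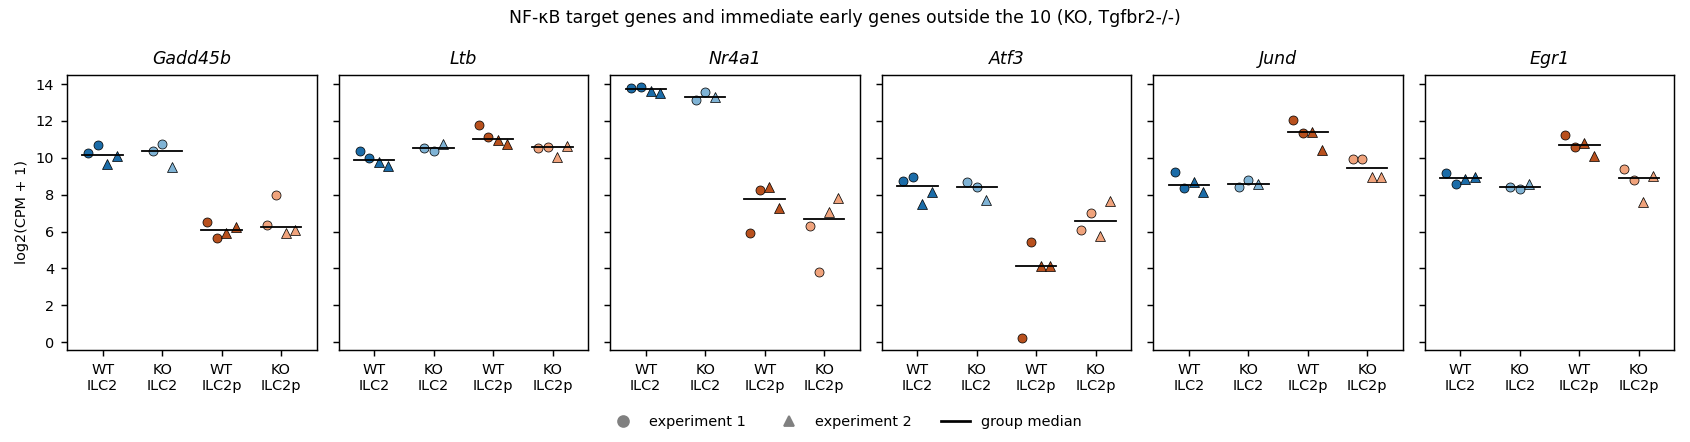
Level, as log2(CPM + 1), of 2 NF-κB target genes (*Gadd45b*, *Ltb*) and 4 immediate early genes (*Nr4a1*, *Atf3*, *Jund*, *Egr1*) in each library. Circles are experiment 1, triangles are experiment 2 and bars are group medians. *Gadd45b* and *Nr4a1* are higher in ILC2s in both genotypes. *Atf3* was called higher in WT cells and not in *Tgfbr2*-/- cells. The difference of its genotype effect between the cell types was not called in edgeR, DESeq2 or limma. *Jund* and *Egr1* are highest in WT ILC2p and lower in *Tgfbr2*-/- (KO) ILC2p.

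The genes whose log2 CPM followed *Tnfaip3* most closely over the 15 libraries were *Il9r* (Pearson r = 0.979), *Rgs1* (0.974), *Smad7* (0.971), *Elf1* (0.961) and *Cnnm2* (0.955). These points share libraries and the 4-group structure, and the values are a description. *Il9r* had a mean of 211 CPM in WT ILC2s, 133 CPM in *Tgfbr2*-/- ILC2s, 48.1 CPM in WT ILC2p and 0.37 CPM in *Tgfbr2*-/- ILC2p. *Smad7*, an inhibitor of TGF-β signaling that TGF-β is known to induce, had means of 48.1, 24.3, 14.7 and 0.31 CPM in the same groups. Within the 8 ILC2p libraries r was 0.963 for *Il9r* and 0.965 for *Smad7*, and within the 7 ILC2 libraries it was 0.605 and 0.881. For *Rgs1*, *Elf1* and *Cnnm2* it was 0.957, 0.919 and 0.933 within ILC2p, but 0.624, 0.521 and -0.26 within ILC2s. *Cnnm2* thus did not follow *Tnfaip3* within ILC2s. The r values within ILC2p still hold the genotype split, with *Il9r*, *Smad7* and *Cnnm2* at means of 0.37, 0.31 and 0.21 CPM in *Tgfbr2*-/- ILC2p. The part of the neutrophil and monocyte markers in these r values was not tested. Among the other 9 genes of the list r was highest for *Nfkbia* (0.855) and *Relb* (0.817) and was lowest for *Birc3*. For *Relb* it was 0.792 within ILC2p but -0.50 within ILC2s, and for *Nfkbia* it was 0.683 and 0.874.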

How the data were processed

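RNA-seq libraries of sorted LP ILC2s (7) and BM ILC2p (8) were used. The authors mapped reads to mm9 with TopHat, keeping reads with multiple hits (the submitters' processing notes name Bowtie2), and the authors deposited, per gene, raw counts and RPKM over full RefSeq transcripts from rpkmforgenes, with overlaps of differently named genes left out. Strand is not given in the sources used here.

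Deposited counts were analyzed in R 4.3.3 with edgeR 4.0.16 (filterByExpr, TMM, quasi-likelihood test, Benjamini-Hochberg). Genes with adjusted p under 0.1 and fold change over 1.5 were called. Genotype comparisons had an experiment term, within each cell type. Cell type comparisons and the difference of genotype effects used all 15 libraries. Standard errors were taken as |log2 fold change| over the root of the F statistic. Alternatives were library-size and RLE scaling, DESeq2 1.42.0, limma 3.58.1 on log2(RPKM + 1) of the deposited RPKM, no filter, other designs and leaving out each library. The scripts were tested on simulated data. No 2 libraries of a group agreed within counting error. Counting error is small at these depths except for values near 0.

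Named genes were the 10 members, *Tgfbr2*, up to 4 called genes with the largest change per pathway list and comparison (the 2 most abundant in lists without a call) and the 5 genes most like *Tnfaip3*. The members and the lists were chosen with earlier results of these data known. Figures were drawn with Python 3.11.15.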

Additional observations from a re-analysis of the deposited data

Results flagged for a closer look

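Within groups of 4 libraries, the highest or lowest library stood apart from the others by Dixon's criterion in 5 of 30 member groups. Chance alone marks about 1 in 20 independent groups, but these groups share 12 libraries and 3 of the 5 fall in 1 library, so the count is given as a description. *Tnfaip3* reached 3433.7 CPM in WT ILC2p experiment 2 replicate 1, with the other WT ILC2p libraries at 2442 to 2570 CPM. *Nfkbiz* was lowest, at 597.868 CPM, in *Tgfbr2*-/- ILC2p experiment 2 replicate 2, with the others at 894 to 938 CPM. In that same library *Nfkb2* was highest at 215.488 CPM and *Relb* highest at 73.4557 CPM, while the other *Tgfbr2*-/- ILC2p libraries held at most 32.1 and 0.55 CPM. *Rel* was highest, at 106.916 CPM, in *Tgfbr2*-/- ILC2p experiment 1 replicate 2. The 3 libraries of *Tgfbr2*-/- ILC2s are too few for this criterion.

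The genotype effect on *Tnfaip3* differed between ILC2s and ILC2p by 1.5606 on the log2 scale (SE 0.20). Relative to the median of the ILC2 markers for the same difference (1.01) it was 0.55, and neutrophil and monocyte markers summed to 73208 to 88104 CPM in the *Tgfbr2*-/- ILC2p libraries. Their part in it was not tested. The value of 1.56 is a description, since the gene was chosen with these data known.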

How the results depend on the processing

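Calls over all genes (edgeR) were 302 between WT cell types, 1492 between *Tgfbr2*-/- cell types, 0 and 321 between genotypes in ILC2s and ILC2p, 127 for the difference of genotype effects, and 117 and 0 between experiments in ILC2s and ILC2p. In the same order DESeq2 gave 950, 2529, 338, 1229, 1498, 1347 and 397. Without a filter the counts that moved by over 1.5 times were 988, 3, 259, 320 and 5 (*Tgfbr2*-/- cell types, genotypes in ILC2s, difference of genotype effects, experiments in ILC2s, experiments in ILC2p). With library size only the difference of genotype effects gave 196 and the experiments in ILC2s 23, and limma gave 382 for the former. Experiment 1 alone gave 38 and experiment 2 alone 77 between genotypes in ILC2p. Leaving out 1 library gave 156 to 238, 596 to 1904, 0 to 0, 179 to 319, 14 to 407, 0 to 10 and 0 to 0. The causes were not tested.

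With a replicate block the genotype comparison in ILC2p gave 175 calls, *Tnfaip3* among them, and that in ILC2s 0. Same-numbered libraries did not deviate together (r = -0.05, -0.01 and -0.05 over 6688 genes), so the numbers do not pair them.

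*Tnfaip3* was called in 14 of 15 alternatives between WT cell types, in 14 of 14 between *Tgfbr2*-/- cell types and in 15 of 17 between genotypes in ILC2p, the exceptions there being each experiment alone (-1.82 and -1.83). An alternative chosen after seeing the data subtracts the median change of the ILC2 markers, which is not a measure of ILC2 content. It turned *Tnfaip3* to -0.42 between WT cell types and *Nfkbia* to -0.70 between *Tgfbr2*-/- cell types. It left *Tnfaip3* at 0.55 between *Tgfbr2*-/- cell types, -0.79 between genotypes in ILC2p and 0.55 for the difference of genotype effects.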
